A study of Mus musculus with 6 samples.

Results

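Semaphorins, Slits and netrins are extracellular cues that steer growing axons, blood vessels and migrating cells, and plexins, neuropilins, Robos and netrin receptors read them at the cell surface. The genes of these families, the guidance families other than Eph and ephrin, were taken from the count table by symbol. They comprised Sema3 to Sema7, Plxna to Plxnd, Nrp1 and Nrp2, Slit1 to Slit3, Robo1 to Robo4, Ntn1 to Ntn5, Unc5a to Unc5d, Dcc and Neo1. Of 55416 genes in the table, 48 were protein-coding genes with such a symbol, and 41 of these held at least 10 counts in at least 3 libraries and are described here. All 41 also passed the count filter of the test, which left 17083 genes.

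The libraries were made from polyadenylated RNA of whole liver, 3 per genotype, from male mice 8 to 10 weeks old at the start. All animals carried 2 floxed Ephb2 alleles (Ephb2flox/flox), received tamoxifen by injection for 5 days and then ate, over 8 weeks, the CDAA high-fat diet without added choline (45% of calories as fat, 0.1% methionine, 1% cholesterol), a diet used to cause steatohepatitis with fibrosis. The WT animals had no Cre, and the KO animals carried Pdgfrb-CreERT2, a tamoxifen-inducible recombinase made where the Pdgfrb promoter is active, as in stellate cells and pericytes. Among the samples analysed here no group carried Cre without floxed Ephb2, and none was kept on another diet. Hepatocytes and other cells without Pdgfrb keep Ephb2 in this design. The labels number the samples without saying that each is a separate animal, so every p-value rests on the spread among these samples alone, which may be technical. Total counts ran from 21160690 to 26339251 per library, and the 41 genes took 0.215 to 0.244% of them. The libraries did not group by genotype over all genes: WT replicate 2, KO replicate 1 and KO replicate 3 differed from each other by a chi-square of 10.4 to 12.1 per degree of freedom, and all other pairs by 30.6 to 69.6.

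A semaphorin binds a plexin through its sema domain, either directly or, for most secreted class 3 semaphorins, through a neuropilin that also binds VEGF. The plexin's cytoplasmic part then signals inside the cell and loosens its grip on the matrix. Slits bind Robos through leucine-rich repeats, and netrins, which are relatives of laminin, bind Dcc, Neo1 and Unc5 receptors. In liver these genes are used by endothelium, stellate cells, hepatocytes, bile ducts and leukocytes. Neuropilin-1 is known in stellate cells as a partner of growth factor receptors.

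Ephb2 is the gene that Cre removes. Levels are given as CPM, the counts of a gene relative to the TMM-scaled library total, for replicates 1 to 3 of each genotype in that order. Ephb2 held 9.46, 8.28 and 12.4 (WT) against 6.01, 8.87 and 6.95 CPM (KO). The genotypes overlapped, since KO replicate 2 lay above WT replicate 2. The log2 fold change of KO over WT was -0.46 (SE 0.206, unadjusted p = 0.05455, adjusted p = 0.850 by edgeR). By exact permutation of the libraries (two-sided) p was 0.2, and the smallest p this design allows in that test is 0.1. The stellate cell markers Lrat, Reln, Colec11 and 8 others, which mark the main target cells, were present in both genotypes at a summed 790.5 to 921.4 CPM in WT and 728.8 to 812.4 CPM in KO liver, with overlap. Of these 11 markers 8 had a negative log2 fold change (median of all 11 -0.25). Among the 8 were Lrat at -0.42 (SE 0.164) and Colec10 at -1.73 (SE 0.535). The other 3 were positive, with Cygb at 0.31 (SE 0.097). Colec10 lay lower and Cygb higher in KO liver without overlap, where 11.1% of all genes tested did not overlap. None of the 11 passed edgeR's adjusted test. Hepatocyte markers summed to 44370 to 59290 CPM over the libraries.

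The guidance genes spanned nearly 3 orders of magnitude in level per length, here CPM per kb of merged exons. The most abundant was Plxnb2, the receptor of Sema4c and Sema4g, at 56.5 ± 3.74 CPM per kb (SD over 6 libraries). Sema4g, a membrane semaphorin, followed at 29.7 ± 4.56 CPM per kb, ahead of Sema4a at 20.04 ± 2.91, a membrane semaphorin also known from immune cells. Plxnb1, the receptor of Sema4d, and Plxnd1, an endothelial receptor of Sema3e, stood at 17.7 ± 1.69 and 17.5 ± 1.31 CPM per kb, and their ranges over the libraries overlapped. Nrp1 (13.1 ± 1.17), Plxna1 (12.1 ± 0.493) and Unc5b (11.3 ± 2.41 CPM per kb) were the next receptors. The lowest of the 41 were Sema3e, Sema3a and Plxnb3, at 0.121, 0.106 and 0.0796 CPM per kb. Per kb of the longest transcript the same genes held the 10 highest places in another order, with Nrp1 at 35.2 CPM per kb.

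**Figure D1:**
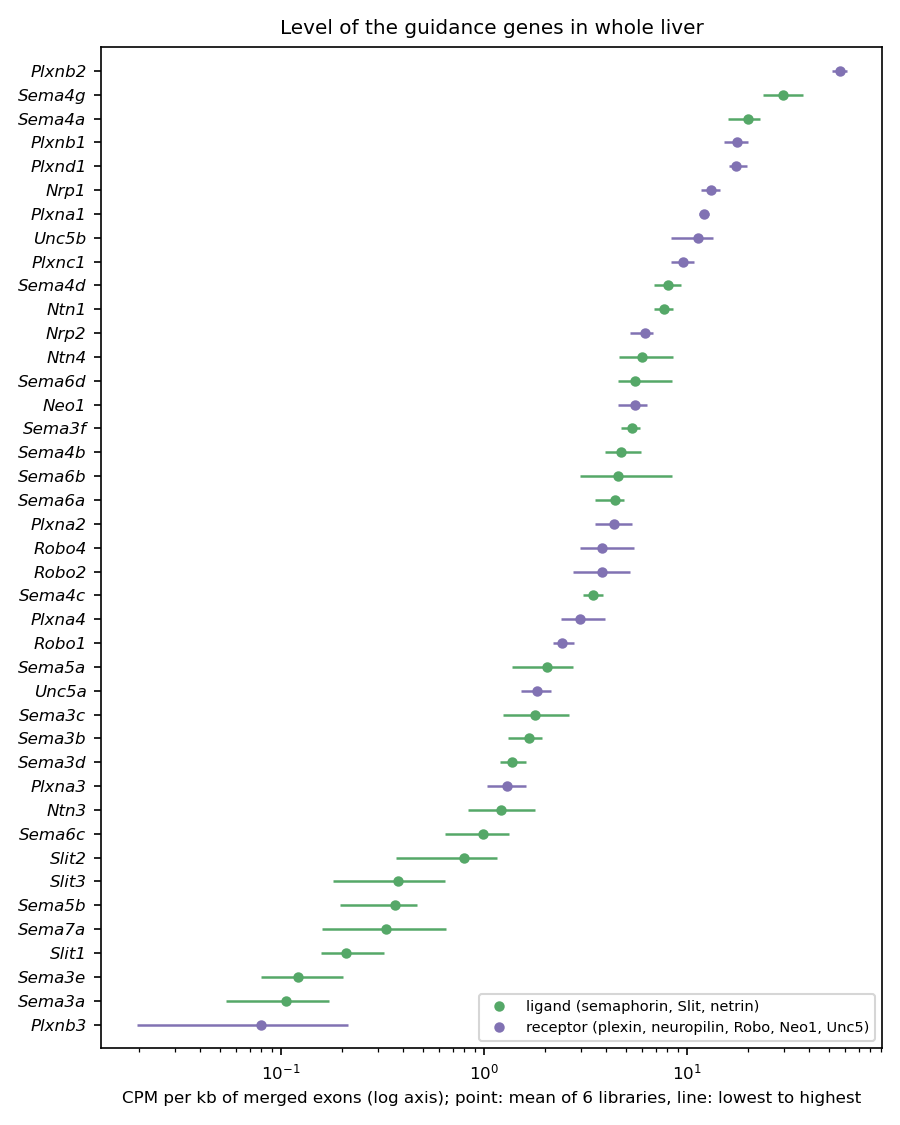
Level of each of the 41 guidance genes in CPM per kb of merged exons (log axis), with the mean of 6 libraries as a point and the lowest to highest library as a line. Plxnb2 lies highest at 56.5 CPM per kb, and Plxnb3 lowest at 0.0796 CPM per kb with the widest range.

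Plxnb3 lay just inside the count limit, with 3 to 29 counts and 4 libraries at 10 or more. Sema3g, with 5 to 11 counts and 2 such libraries, lay just outside. Unc5c, Robo3 and Sema4f lay further outside, with at most 13, 5 and 9 counts and 1, 0 and 0 such libraries. Ntn5 had at most 1 count. Dcc and Unc5d had 0 counts in every library, which allows a level of up to 0.114 to 0.149 CPM (3 counts of a library). This limit covers counting error only. Dcc, the classical attractive netrin receptor, was thus not detectable at this depth, while the related receptor Neo1 stood at 5.52 ± 0.688 CPM per kb.

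Between the genotypes, no guidance gene passed edgeR's quasi-likelihood test after Benjamini-Hochberg adjustment over all genes (smallest adjusted p = 0.850). The same test called 0 of 17083 genes, 0% of those tested. At an unadjusted p under 0.05 stood 4 of the 41 genes, all higher in KO liver. They were 3 of the 4 A-type plexins, Plxna2, Plxna3 and Plxna4, and the secreted ligand Sema3c. That is 9.76% of the guidance genes, where 5.19% of all genes tested stood there, 3.08% higher and 2.1% lower in KO liver. The genotypes did not overlap in 3 of the 41 genes (7.32%), against 11.1% of all genes tested, 2 of them higher in KO liver (6.21% of all genes) and 1 lower (4.9%). DESeq2 called 0 of the 41 after adjustment and 0.0567% of all genes. The log2 fold change of KO over WT was positive in 23 of the 41 genes (56.1%) and in 49% of all genes, with a median of 0.09 for the guidance genes and -0.0048 for all genes. The number moved with the libraries included: without WT replicate 3 or without KO replicate 3, 0 guidance genes had an unadjusted p under 0.05 in edgeR (4.11 and 2.59% of all genes), and without WT replicate 1 there were 2 (3.8% of all genes), Sema5b and Sema6d. Without WT replicate 2 there were 13 (31.7%, against 10.7% of all genes), 10 of them higher in KO liver. The log2 fold changes of the 4 genes stayed positive with any library left out, at 0.24 to 0.46 for Plxna2, 0.28 to 0.45 for Plxna3, 0.23 to 0.51 for Plxna4 and 0.25 to 0.55 for Sema3c. Without KO replicate 1 there were 4 genes at an unadjusted p under 0.05 (5.11% of all genes), Plxna4, Robo1, Sema3c and Slit3. Without KO replicate 2 there were 6 (5.18%), Plxna2, Plxna3, Sema3b, Sema3c, Sema6b and Sema6c. With all libraries, the number was 7 with no count filter (4.69% of all genes) and 5 by DESeq2 (2.83%). It was 2 with the replicate number as a block (3.14%) and 7 with acute phase level as a covariate chosen after seeing the data (6.52%). The genes changed with the method. DESeq2 had Plxna4, Sema3c, Sema5a, Sema6b and Sema6d, with Plxna2 at an unadjusted p of 0.0545 and Plxna3 at 0.0536. The block kept Plxna4 and Sema3c, and limma-voom had Sema5a in place of Sema3c.

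**Figure D2:**
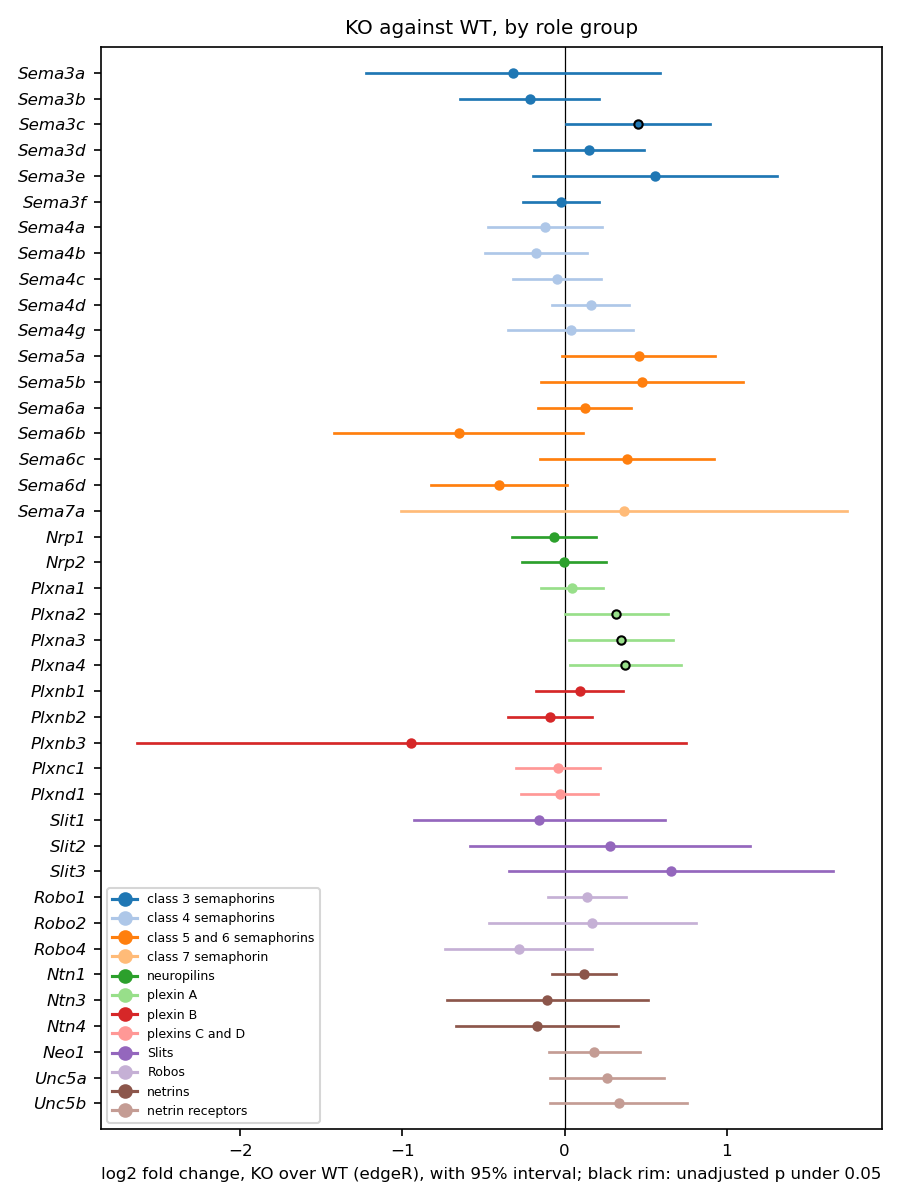
Log2 fold change of KO over WT from edgeR with its 95% interval for the 41 guidance genes, coloured by role group. A black rim marks an unadjusted p under 0.05, which Sema3c, Plxna2, Plxna3 and Plxna4 reached at log2 fold changes of 0.32 to 0.45, and the intervals of the other genes include 0.

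A-type plexins are the signalling partners of neuropilins for class 3 semaphorins and the direct receptors of class 6. Plxna4 (chromosome 6 of GRCm38, 32144268 to 32588192, minus strand) was at 35.1, 40.1 and 33.9 (WT) against 37.5, 55.8 and 48.0 CPM (KO). KO replicate 1 lay below WT replicate 2, so the genotypes overlapped. The log2 fold change was 0.37 (SE 0.148, 95% interval 0.03 to 0.72; unadjusted p = 0.0352, adjusted p = 0.850 by edgeR), and went to 0.23 without KO replicate 2. Plxna3 (chromosome X, 74329066 to 74344689, plus strand) was at 8.62, 10.3 and 8.18 (WT) against 11.2, 10.8 and 12.6 CPM (KO). All its KO libraries lay above all WT libraries, at a log2 fold change of 0.35 (SE 0.139; unadjusted p = 0.0370, adjusted p = 0.850 by edgeR). Plxna2 (chromosome 1, 194618218 to 194816869, plus strand) was at 60.9, 79.9 and 60.3 (WT) against 92.3, 73.9 and 84.6 CPM (KO). Here WT replicate 2 lay above KO replicate 2, and the log2 fold change was 0.32 (SE 0.137; unadjusted p = 0.0490, adjusted p = 0.850 by edgeR). Plxna1, the most abundant of the 4, held 104 to 111 CPM in WT and 107 to 116 CPM in KO liver (log2 fold change 0.04, 95% interval -0.15 to 0.24).

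Sema3c, a secreted semaphorin that binds both neuropilins (chromosome 5, 17574281 to 17730268, plus strand), was at 8.86, 12.2 and 11.1 (WT) against 12.6, 12.9 and 18.6 CPM (KO). The lowest KO library lay just above the highest WT library, and KO replicate 3 stood apart. The log2 fold change was 0.45 (SE 0.192; unadjusted p = 0.0462, adjusted p = 0.850 by edgeR) and went to 0.25 without KO replicate 3. Sema6d, a membrane semaphorin that binds Plxna1 (chromosome 2, 124089969 to 124667770, plus strand), was the gene without overlap in the other direction. It stood at 57.4, 54.1 and 88.9 (WT) against 53.3, 49.6 and 48.3 CPM (KO). The high WT replicate 3 carried most of the difference: the log2 fold change of -0.41 (SE 0.181; unadjusted p = 0.0554 by edgeR) went to -0.15 without it.

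**Figure D3:**
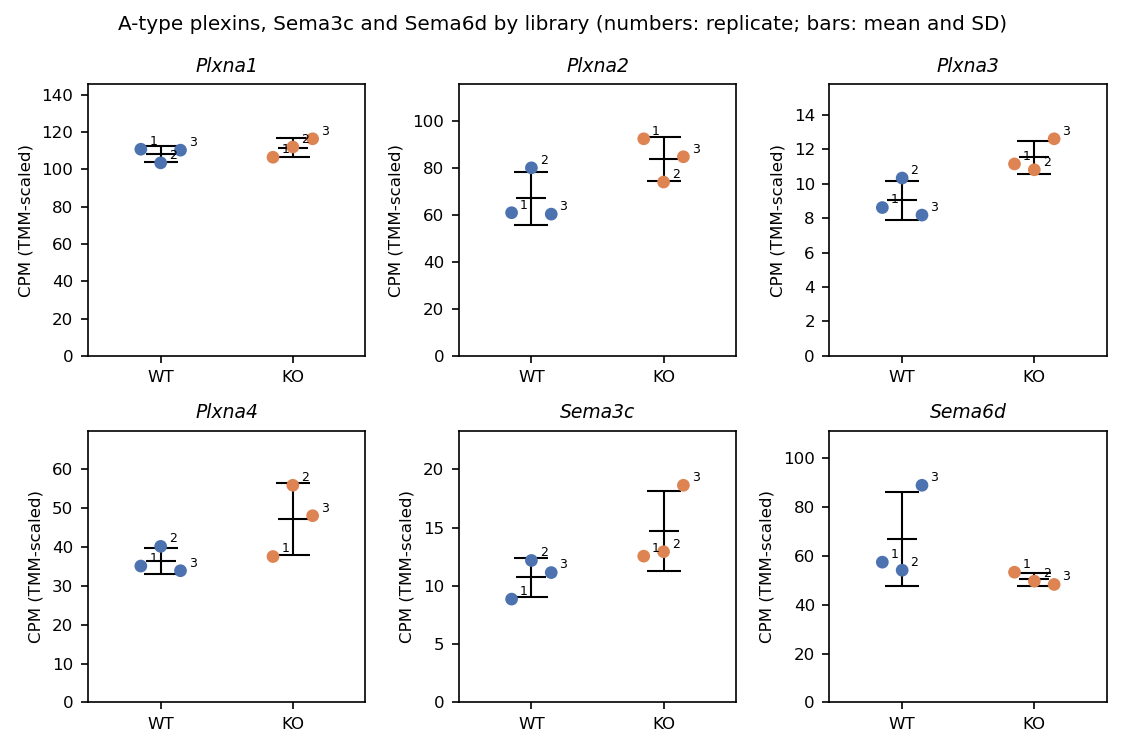
TMM-scaled CPM of the 4 A-type plexins, Sema3c and Sema6d in each library, with the replicate number beside each point and bars for mean and SD (n = 3 per genotype). Plxna3 and Sema3c lie higher and Sema6d lower in KO liver without overlap, while Plxna1 spans 104 to 116 CPM over all libraries.

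The summed level of bile duct (cholangiocyte) markers was also higher in the KO libraries, though WT replicate 2 and KO replicate 2 lay close together. Of the 8 markers 3 did not overlap between the genotypes, where 11.1% of all genes tested did not. Epcam, Pkhd1, Krt23 and Bicc1 were highest in WT replicate 2 and KO replicates 1 and 3. All 8 markers had a positive log2 fold change (median 0.40), 5 of them at an unadjusted p under 0.05 (5.19% of all genes) and none past edgeR's adjusted test, and their summed level was 344.9 to 514.6 CPM in WT and 519.8 to 691.5 CPM in KO liver. None of the 8, Krt19 and Epcam among them, was at 0 in all libraries. All 8 dendritic cell markers were positive too (median 0.27, 2 at an unadjusted p under 0.05), with overlapping sums, and portal fibroblast and mesothelial markers had a median of 0.44, with 5 of 7 tested positive. The part of these markers in the plexin and Sema3c values was not tested. In whole liver, fewer cells of a type and less RNA per cell cannot be told apart.

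The other class 3 semaphorins were at log2 fold changes from -0.32 (Sema3a) to 0.56 (Sema3e), both at about 1 CPM, where the SE was 0.393 and 0.326. Sema3f, a ligand of Nrp2 and the most abundant of the class per length, was at 24.7, 29.0 and 30.4 (WT) against 28.5, 27.3 and 27.1 CPM (KO). Its log2 fold change was -0.02 (95% interval -0.25 to 0.21). Sema3b and Sema3d stood at -0.22 (SE 0.185) and 0.15 (SE 0.147). Nrp1 was at 136.8, 114.9 and 141.6 (WT) against 123.5, 136.4 and 116.4 CPM (KO), with a log2 fold change of -0.06 (95% interval -0.32 to 0.19). Nrp2 was at -0.0036 (95% interval -0.27 to 0.26). For both neuropilins the libraries of the genotypes were intermixed. Among the genes named in full, scaling by library size alone turned the sign of Nrp1, Sema3f and Plxnd1 to positive. The sign of Nrp2, not among those genes, turned under 8 of the 17 alternatives. Its log2 fold change ran from -0.11 to 0.0624 with a library left out and reached 0.0834 under the other alternatives.

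Class 4 semaphorins are membrane proteins that signal through B-type plexins and, on leukocytes, through other receptors. None of the 5 stood at an unadjusted p under 0.05. Sema4g was at 323, 235 and 204 (WT) against 263, 253 and 267 CPM (KO), so the 3 KO libraries were close together inside the WT range. Its log2 fold change was 0.04 (95% interval -0.35 to 0.42), with 0.24 without WT replicate 1 and -0.10 without WT replicate 3. Sema4a, Sema4b, Sema4c and Sema4d stood at -0.12, -0.18, -0.05 and 0.16. Plxnb2 was at 466, 410 and 471 (WT) against 432, 436 and 399 CPM (KO), with a log2 fold change of -0.09 (95% interval -0.35 to 0.17), and Plxnb1 at 0.09 (95% interval -0.18 to 0.36). Plxnb3 was counted too thinly to place, at -0.94 with an interval of -2.64 to 0.75. Plxnd1 stood at 117, 125 and 145 (WT) against 128, 122 and 129 CPM (KO), with a log2 fold change of -0.03 (95% interval -0.27 to 0.21), and Plxnc1, the receptor of Sema7a, at -0.04 (95% interval -0.30 to 0.22). The intervals of Plxnb1, Plxnb2, Plxnc1, Plxnd1, Nrp1 and Nrp2 all lay within -0.35 and 0.36.

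Class 5 and 6 semaphorins are transmembrane ligands, those of class 5 with thrombospondin repeats. Sema5a was at 25.8, 43.8 and 27.4 (WT) against 42.7, 39.4 and 51.0 CPM (KO). WT replicate 2 lay inside the KO range and the other WT libraries below it, at a log2 fold change of 0.46 (SE 0.204; unadjusted p = 0.0563 by edgeR) that ran from 0.31 to 0.74 with a library left out. Sema6b was at 20.2, 12.98 and 33.4 (WT) against 11.9, 18.5 and 11.8 CPM (KO), with a log2 fold change of -0.65 (SE 0.332) that went to -0.23 without WT replicate 3. Sema5b, Sema6a and Sema6c stood at 0.48, 0.12 and 0.38, with overlap in each. Sema7a, a GPI-anchored ligand of Plxnc1 and integrin beta-1, had 11 to 48 counts per library. It was at 0.545, 1.72 and 0.526 (WT) against 0.915, 0.645 and 2.14 CPM (KO), so each genotype held both low and high libraries. The log2 fold change was 0.37 (SE 0.595), and -0.28 without KO replicate 3.

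Slit2 and its receptor Robo2 differed more within than between the genotypes. Slit2 was at 9.41, 29.6 and 15.5 (WT) against 25.8, 16.3 and 24.5 CPM (KO), and Robo2 at 46.9, 88.8 and 46.4 CPM and 75.0, 50.3 and 80.0 CPM. WT replicate 2 was the highest library for both, and KO replicates 1 and 3 came next. The log2 fold change was 0.28 for Slit2 (SE 0.374) and 0.17 for Robo2 (SE 0.277). That of Slit2 ran from -0.03 without WT replicate 1 to 0.83 without WT replicate 2, and that of Robo2 from 0.0098 to 0.55 with a library left out. Robo4, a Robo of endothelium, was highest in WT replicate 3, at 17.3, 19.9 and 29.2 (WT) against 19.9, 15.8 and 18.8 CPM (KO) (log2 fold change -0.28, SE 0.197), and the log2 fold change was -0.03 without that library. Robo1, the broadly expressed Slit receptor, stood at 37.3 to 39.2 CPM in WT and 36.2 to 46.0 CPM in KO liver (0.14, SE 0.104). Slit1 and Slit3 were near 1 to 4 CPM, at -0.15 (SE 0.336) and 0.65 (SE 0.433).

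Ntn1, the founding vertebrate netrin, was among the steadiest of the genes, at 47.2, 49.1 and 43.1 (WT) against 53.4, 48.7 and 49.4 CPM (KO). The log2 fold change was 0.12 (95% interval -0.08 to 0.32). Ntn4, a netrin of basement membranes, was at 19.7, 19.95 and 31.9 (WT) against 20.8, 25.3 and 17.3 CPM (KO), again highest in WT replicate 3. Ntn3 stood at -0.11 (SE 0.268), and its exons share 89 bases with those of Tbc1d24 on the same strand, a gene with more counts, so its value is uncertain. Unc5b, a netrin receptor known from blood vessels, was at 53.4, 82.0 and 52.4 (WT) against 84.2, 68.3 and 84.5 CPM (KO). WT replicate 2 lay within the KO range, and the log2 fold change was 0.33 (SE 0.183; unadjusted p = 0.105 by edgeR). Without WT replicate 2 it was 0.58 (unadjusted p = 0.00204, adjusted p = 0.297 by edgeR), in a fit where 10.7% of all genes had an unadjusted p under 0.05. With any other library left out it was 0.22 to 0.43, at an unadjusted p of 0.067 to 0.293 by edgeR. Unc5a and Neo1, which also binds the repulsive guidance molecules, stood at 0.26 (SE 0.152) and 0.18 (SE 0.122). Unc5a shares 34 exon bases with the antisense gene Hk3. All 3 netrin receptors had a positive log2 fold change, and none stood at an unadjusted p under 0.05.

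**Figure D4:**
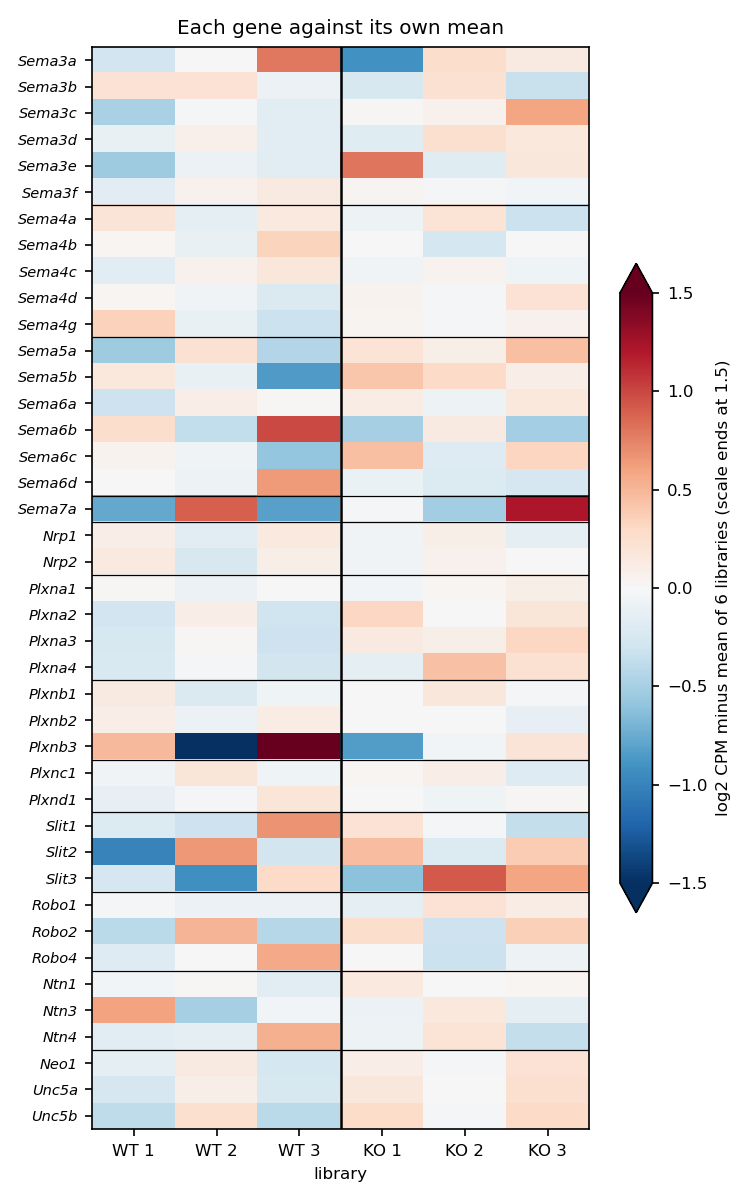
Log2 CPM of the 41 guidance genes in each library minus the gene's mean over 6 libraries, with role groups separated by lines and the colour scale ending at 1.5. Slit2, Robo2, Sema7a and Unc5b are high in WT replicate 2 and KO replicate 3, and Sema6b, Sema6d, Robo4 and Ntn4 are high in WT replicate 3.

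The genes also differed in their spread among replicates. The coefficient of variation within genotypes had a median of 16.5% over the 41 genes and 13.4% over all genes tested. It was over 30% in 9 genes, led among the well-counted ones by Sema6b (43.2%), Slit2 (40.5%) and Robo2 (31.8%). It was under 10% in 10 genes, lowest in Plxna1 (4.12%), Ntn1 (5.78%) and Plxnb2 (6.38%). In all 41 it exceeded the value that counting alone gives, which for Slit2 was 4.64%.

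In 11 of the 41 genes (26.8%), WT replicate 2 and KO replicates 1 and 3 were the 3 highest libraries: Sema3e, Sema5a, Sema6a, Sema7a, Plxna2, Slit2, Robo2, Ntn1, Neo1, Unc5a and Unc5b. This order held in 9.29% of all genes tested, and both shares are given as a description of these 6 libraries with no test. Acute phase genes such as Saa1 had the opposite order, with sums of 7773, 3278 and 10450 (WT) against 3889, 14110 and 3260 CPM (KO). The collagen genes Col1a1, Col1a2 and Col3a1 had the same order as the 11 genes, with Col1a1 at 548.5, 830.9 and 615 (WT) against 786.4, 621.6 and 938.7 CPM (KO). They carried the sum of the activated stellate cell markers (1637 to 2625 CPM in WT, 1915 to 2683 CPM in KO liver), while the contractile gene Acta2 was lowest in those 3 libraries. Among portal fibroblast and mesothelial markers (77.9 to 164.3 CPM in WT, 114.9 to 156.8 CPM in KO liver) the elastin gene Eln had the order, at 55.6, 131.7 and 46.8 (WT) against 121.6, 80.2 and 117.1 CPM (KO), and Msln, Upk3b and Upk1b were highest in KO replicate 2. The part of these in the values of the 11 genes was not tested. Col1a1, Acta2 and Eln were picked out after their values were seen.

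WT replicate 3 was the highest library in 13 of the 41 genes (31.7%, against 24% of all genes tested). These were Sema6b, Sema6d, Robo4, Ntn4, Plxnd1, Nrp1, Sema3a, Sema3f, Sema4b, Sema4c, Plxnb2, Plxnb3 and Slit1. It was also the lowest library in 12 of the 41, a number without a share over all genes. Unc5b was among those lowest in that library, at 52.4 CPM. In that library sinusoidal endothelial markers summed to 1021 CPM, against 586.7 to 767.8 CPM in the others. Vascular endothelial markers summed to 392.4 CPM against 248.3 to 288.2 CPM, and Kupffer cell markers to 1623 CPM against 632.5 to 924.6 CPM. Vwf, Plvap, Pecam1 and Cdh5 carried the vascular sum and were highest in WT replicate 3. The other vascular markers did not share this: Cd34 was lowest there, at 17.5 CPM, and Sox17, Emcn and Rspo3 were highest in other libraries. Between the genotypes all 8 sinusoidal markers had a negative log2 fold change, with overlapping sums (689.2 to 1021 CPM in WT, 586.7 to 767.8 CPM in KO liver) and a median of -0.24. All 8 Kupffer markers were negative as well, with a median of -0.73, 2 of them at an unadjusted p under 0.05, and overlapping sums. The part of these markers in the values of Sema6b, Sema6d, Robo4 and Ntn4 was not tested.

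Sequence upstream of the start site is shown for Plxna3, which did not overlap between the genotypes, for the steady and most abundant Plxnb2, and for Unc5b and Robo2, which shared the order of libraries described above. RefSeq windows on GRCm38.p6 were matched for 34 of the 41 genes. The printed 250 bases before a start lie at chrX:74328816-74329065 (plus strand) for Plxna3 and chr15:89180789-89181038 (minus strand) for Plxnb2. They lie at chr10:60831582-60831831 for Unc5b and chr16:74411826-74412075 for Robo2, both on the minus strand. They overlap no annotated exon, are written 5′ to 3′ on the strand of the gene, and capitals mark the GC box GGGCGG on either strand.
Plxna3: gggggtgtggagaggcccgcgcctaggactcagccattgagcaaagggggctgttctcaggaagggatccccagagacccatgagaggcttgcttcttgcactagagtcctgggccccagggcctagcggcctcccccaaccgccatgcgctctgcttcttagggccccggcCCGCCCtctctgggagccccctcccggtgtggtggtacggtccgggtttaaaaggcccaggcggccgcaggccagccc
Plxnb2: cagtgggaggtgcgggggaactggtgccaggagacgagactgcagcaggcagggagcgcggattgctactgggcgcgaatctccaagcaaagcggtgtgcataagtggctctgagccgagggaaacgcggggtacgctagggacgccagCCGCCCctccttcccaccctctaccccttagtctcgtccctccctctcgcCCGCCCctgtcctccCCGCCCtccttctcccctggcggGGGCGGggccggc
Unc5b: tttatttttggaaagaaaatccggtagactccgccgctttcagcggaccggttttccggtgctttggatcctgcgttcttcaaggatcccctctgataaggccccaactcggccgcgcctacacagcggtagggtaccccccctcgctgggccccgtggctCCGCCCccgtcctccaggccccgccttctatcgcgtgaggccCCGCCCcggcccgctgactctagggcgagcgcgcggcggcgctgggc
Robo2: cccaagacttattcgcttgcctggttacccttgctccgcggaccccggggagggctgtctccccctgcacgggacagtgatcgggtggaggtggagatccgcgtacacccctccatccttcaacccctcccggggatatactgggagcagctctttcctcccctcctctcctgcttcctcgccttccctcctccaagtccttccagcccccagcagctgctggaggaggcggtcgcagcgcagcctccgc
The GC box, the motif of Sp1-type factors, occurred in the printed windows 1 time for Plxna3, 4 times for Plxnb2, 2 times for Unc5b and 0 times for Robo2. Plxnb2 and Robo2 also had other RefSeq windows, whose first transcribed bases matched no annotated transcript of the gene. The other Plxnb2 window held 3 GC boxes and the other Robo2 windows 0. Over the guidance genes it was present in 33 of 47 windows (70.2%), against 55% of 13895 windows of protein-coding genes tested and 32.7% of all 32851 windows. The STAT-type motif TTCNNNGAA was in 0 of 47 windows (6.12% of those of protein-coding genes tested), the TATA box TATAAA in 1 (7.02%) and the AP-1 motif TGANTCA in 3 (4.86%), each searched on both strands. The E-box CACGTG was in 3 windows (7.83%) and CCAAT in 8 (34.9%). The G and C share had a median of 64.4% in the windows of the guidance genes and 59.2% in those of protein-coding genes tested. These matches describe the letters in the windows and not sites in use.

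Partner genes of the pathways (other semaphorin receptors, VEGF ligands and receptors, plexin and Robo effectors, netrin and RGM partners and shedding proteases) numbered 105, of which 97 were tested. None passed edgeR's test, and 7 (7.22%, against 5.19% of all genes tested) stood at an unadjusted p under 0.05, 5 higher and 2 lower in KO liver. This share is near that of all genes. Higher were Srgap3, a GTPase-activating protein that binds Robo (log2 fold change 0.86, SE 0.248), and Rgma, a repulsive ligand of Neo1 (0.68, SE 0.211). Vegfa, a ligand of both neuropilins (0.25, SE 0.0804), Ptk7, a pseudokinase that associates with plexins (0.49, SE 0.177), and Erbb2, a kinase that associates with B-type plexins (0.38, SE 0.157), were higher too. Lower were Ablim3, an actin-binding protein (-0.36, SE 0.112), and Pcsk6, a proprotein convertase (-0.37, SE 0.138). Rgma was at 2.53, 3.57 and 3.87 (WT) against 5.32, 4.63 and 6.11 CPM (KO), and Vegfa at 76.5, 73.4 and 69.0 CPM and 85.0, 86.2 and 88.8 CPM. Neither gene overlapped between the genotypes. Of the 97 partner genes tested, 13 lay higher and 5 lower in KO liver without overlap. Over all genes tested these shares were 6.21% and 4.9%. Among the effectors of plexins, such as Mical1 and Rnd1, 0 of 29 stood at an unadjusted p under 0.05 by edgeR (0 after adjustment), 13 positive and 16 negative with a median of -0.02.

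**Figure D5:**
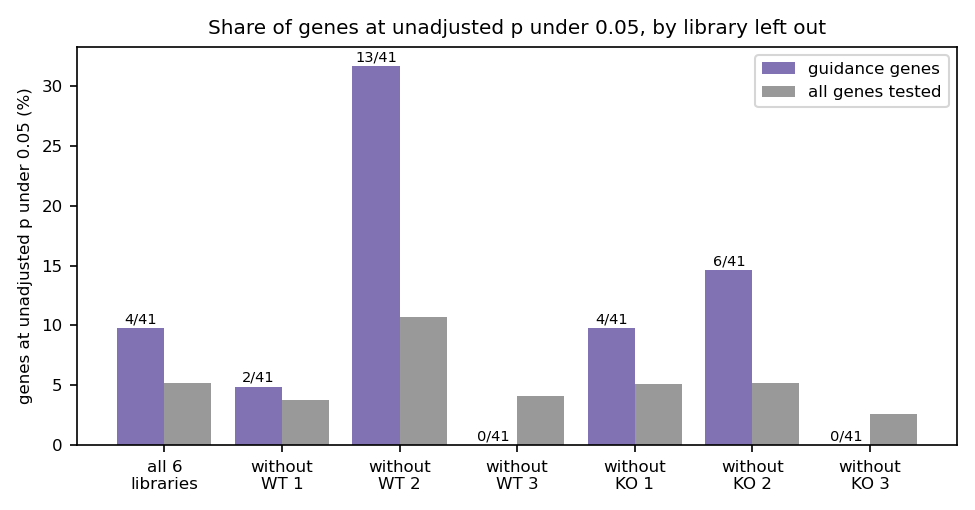
Share of genes at an unadjusted p under 0.05 in edgeR for the 41 guidance genes (with their number over the bar) and for all genes tested, with all 6 libraries and with each library left out. The number of guidance genes runs from 0 without WT replicate 3 or KO replicate 3 to 13 without WT replicate 2.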

How the data were processed

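RNA of 6 whole-liver samples was measured. The authors deposited a table of raw counts with Ensembl gene IDs in rows and 1 column for each sample. Per the submitters' processing notes, which give no roles, the tools were STAR 2.7.6a, featureCounts 1.6.3 and DESeq2 1.30.0, on GRCm38 or mm10. The libraries came from a directional kit, per the labels' protocols, but the counting strand and annotation release were not given in the sources used here, so antisense and overlapping genes can share reads. Symbols, positions and exon lengths came from GENCODE M21 on GRCm38 (52135 of 55416 IDs, 94.1%). A chi-square of at least 10.4 per degree of freedom separated every pair of libraries, so each counted as 1 replicate.

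Tests used edgeR 4.0.16 in R 4.3.3 (glmQLFit and glmQLFTest, TMM, filterByExpr with a minimum count of 10 and total of 15, genotype as the sole term, Benjamini-Hochberg at 0.05 over 17083 genes). Levels are TMM-scaled CPM, intervals are 95% intervals. The fit was tested on simulated data, in 3 runs with 200 changed genes each. It recovered 31.3% of the 1.5-fold, 81.1% of the 2-fold and 99.5% of the 4-fold changes at an adjusted p under 0.05. There were 23 false calls over all runs, and changes under 1.5-fold were not simulated. Each gene was drawn independently, with the spread typical of its level, and only genes above a minimum mean level were changed. The grouping of libraries across genotypes seen in the real data was therefore absent. How far these rates hold for the guidance genes was not tested. Alternatives were other scalings and filters, DESeq2 1.42.0, limma-voom (limma 3.58.1), a robust fit, a replicate block, leaving out each library or the 20 most abundant genes and, added after seeing the data, an acute phase covariate.

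The members and lists were chosen with earlier results of these data known. Named in full were members at an unadjusted p under 0.05, those without overlap and the most abundant per length of each role group. Partner genes were named at an unadjusted p under 0.05, up to 6 per direction. Values of other members, the printed windows and the library orders were chosen after the values were seen.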

Additional observations from a re-analysis of the deposited data

How the results depend on the processing

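No guidance gene passed the adjusted threshold under any of the 17 alternatives; the smallest adjusted p of a guidance gene was 0.297 by edgeR, without WT replicate 2. Over all genes, 3 passed with no count filter, 8 by DESeq2 and 0 to 2 with a library left out. The number of guidance genes at an unadjusted p under 0.05 went from 4 to 7 with no count filter, 7 with the acute phase covariate (chosen after seeing the data), 2 with the replicate block, and 0 to 13 with a library left out. The median log2 fold change of the guidance genes was 0.18 by library size alone, which moved the median of all genes from -0.0048 to 0.075, and 0.0387 to 0.0813 with a library left out. Partner genes at that level numbered 14 by library size alone, 12 with no count filter and 3 to 15 with a library left out. The cause of these shifts was not tested. Same-numbered libraries had correlations of deviations of -0.026, -0.438 and -0.313, and the other pairs of a WT and a KO library -0.124 to 0.367. The replicate numbers thus gave no sign of a pairing, but 3 libraries per genotype cannot exclude one. Of 271 values of the 16 genes named in full, 259 kept their direction. By library size alone Nrp1 went to 0.0204, Plxnd1 to 0.0533 and Sema3f to 0.0591, and by upper-quartile scaling Plxnd1 to 0.0065 and Sema3f to 0.0147. With a library left out, Plxnd1 ran from -0.10 to 0.0621, Sema3f from -0.11 to 0.0408, Sema4g from -0.10 to 0.24, Sema7a from -0.28 to 1.18 and Slit2 from -0.0332 to 0.83. Genes near 1 CPM carry counting error beside the spread between libraries.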
